A study of Mus musculus with 8 samples.

Results

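The 10 genes described here encode proteins that small intestinal enterocytes use to digest and absorb food: the enzymes Sis, Lct and Anpep, the transporters Slc6a19 and Slc5a1, the lipid binding proteins Fabp1, Fabp2 and Fabp6, and the apolipoproteins Apoa1 and Apoa4. They were taken by name from a deposited table of 23282 gene lines. All 10 were found, each on 1 line. They were chosen by their measured levels in these 8 libraries, already known, as a reading of the gut region that each library came from, so their levels and fold changes are given as a description with no test. The levels went against the group's name in part: 4 of the 10 genes had at most 11 counts in any library, 1 was abundant in 7 libraries, and 1 appeared in 3 libraries that also held the highest levels of several kidney tubule genes.

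Enterocytes of the small intestine carry a brush border whose membrane enzymes split sugars and peptides and whose transporters take up the products. Inside the cell, fatty acid binding proteins carry absorbed lipids, and apolipoproteins coat the chylomicrons that leave toward the lymph. Most of these genes are strongest in the duodenum and jejunum, bile acid handling belongs to the ileum, and the colon, which mainly takes up water, salt and short-chain fatty acids, expresses few of them.

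All libraries came from intestinal tissue of wild type C57BL/6 mice, with the gut region not given in the sources used here. The 4 groups of 2 libraries are named as in the labels: NC (saline in place of exosomes, no DSS), PC (saline, then 3% DSS for 6 days), Ex (bovine colostrum exosomes by gavage, 1 mg a day for 3 weeks, no DSS) and ExDSS (the same exosomes, then the same DSS). Exosomes are small membrane vesicles, here from bovine milk, and DSS, dextran sodium sulfate, is a polymer given in drinking water that injures the colonic epithelium. Neither the age of the mice nor the animal behind each library is stated in the sources used here. A p-value therefore measures only library-to-library spread within groups, part of which may be technical.

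Library totals ranged from 8813622 to 12308537 counts in 7 libraries and stood at 1163147 in the library labelled Ex 2, where 53.5% of counts were the ribosomal RNA precursor Rn45s. At least 1 count was found for 8760 to 12683 genes in NC 2, Ex 2 and both ExDSS libraries, and for 16123 to 16790 in the other 4. Levels are normalised CPM, that is, counts scaled to a common library total after TMM normalisation. A count of 0 allows up to 3 counts, which is 0.199 to 0.411 normalised CPM in 7 libraries and 4.47 in Ex 2, from counting error alone. The summed level of 10 neutrophil markers, which DSS colitis is known to raise, was 3087 and 2618 normalised CPM in the libraries labelled NC, 3733 and 2354 in ExDSS, 12.3 and 10.3 in PC, and 9.29 and 11.9 in Ex. The libraries labelled NC thus held the high level and those labelled PC the low level, against what the labels would lead one to look for, and every group name below is the label. Whether these labels were exchanged cannot be told from the files. An exchange would turn the sign of PC against NC and change every comparison that uses either group. In bulk tissue, fewer cells of a type and less RNA per cell cannot be told apart.

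**Figure D1:**
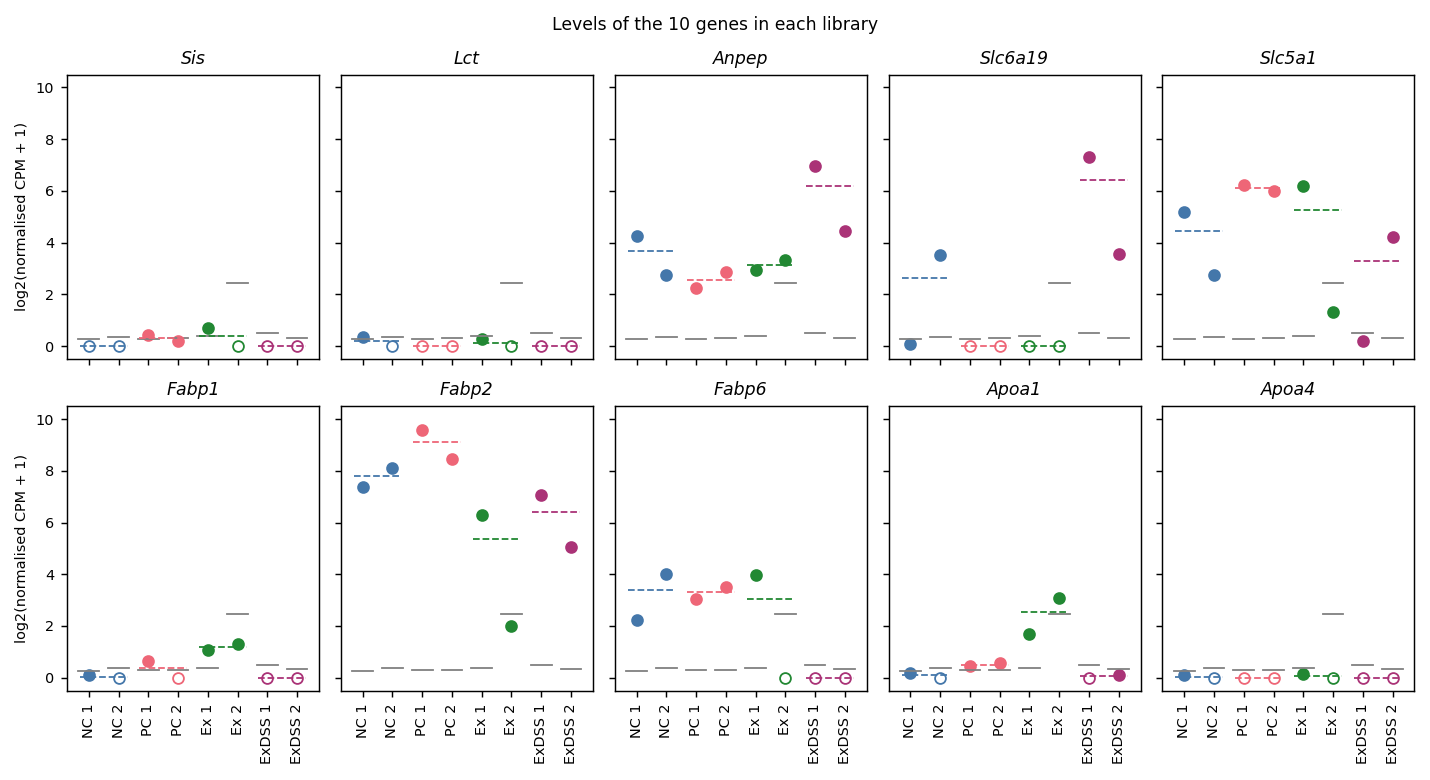
Level of each gene in each library, as log2(normalised CPM + 1). Points are libraries (open points had no count), dashed lines are group means on the CPM scale, and short grey bars mark the level of 3 counts. Sis, Lct, Fabp1 and Apoa4 lie near the bars throughout, Fabp2 is high in all libraries but Ex 2, and Slc6a19 is above the bars in NC 2, ExDSS 1 and ExDSS 2.

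The disaccharidases were close to absent. Sis, sucrase-isomaltase, which splits sucrose and the branch points of starch, had 0 counts in both NC libraries, 5 in PC 1, 2 in PC 2, 6 in Ex 1 and 0 in Ex 2 and both ExDSS libraries. Lct, lactase, which splits milk sugar, had 4 counts in NC 1, 2 in Ex 1 and 0 in the other 6 libraries. Its highest level was 0.265 normalised CPM, in NC 1. Both genes are among the strongest of the jejunal brush border, and neither passed the filter on low counts. In the table's coordinates, which are those of GRCm38, Sis lies on chromosome 3 from 72888560 to 72966866 and Lct on chromosome 1 from 128284764 to 128328318.

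Anpep, aminopeptidase N, trims peptides at the brush border and is also made by the kidney tubule and by myeloid cells. It lies on chromosome 7 from 79821803 to 79842352. The 2 NC libraries were at 18.0 and 5.72 normalised CPM, the 2 PC libraries at 3.71 and 6.20, Ex 1 at 6.64 and Ex 2 at 8.93, the last from 6 counts. In ExDSS 1 and ExDSS 2 it was 122 and 20.9, so that both ExDSS libraries lay above the other 6. With total counts alone ExDSS 2 lay below NC 1, at 23.1 against 23.8 CPM. The group means were 11.8 ± 8.66 (SD, n = 2) in NC, 4.95 ± 1.76 in PC, 7.79 ± 1.62 in Ex and 71.6 ± 71.6 in ExDSS. The fitted log2 fold change was 3.85 (SE 1.66) for ExDSS against PC and 2.06 without ExDSS 1.

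Of the nutrient transporters, Slc6a19 takes up neutral amino acids in both the small intestine and the proximal tubule of the kidney. It lies on chromosome 13 from 73681157 to 73700695. It had 1 count in NC 1 and 110 in NC 2, none in PC 1, PC 2, Ex 1 or Ex 2, 1144 in ExDSS 1 and 130 in ExDSS 2. As levels these were 10.5 normalised CPM in NC 2, 157 in ExDSS 1 and 10.9 in ExDSS 2. The 3 libraries with the gene thus belonged to 2 groups, and the NC libraries differed from each other. Against a floor of 3 counts per library averaged over the group at 0, ExDSS was at least 370-fold higher than PC (at least 692-fold in ExDSS 1 and at least 48.0-fold in ExDSS 2) and at least 35.1-fold higher than Ex (at least 65.7-fold and 4.56-fold). NC was at least 23.3-fold higher than PC, and this came from NC 2, since NC 1 lay below the floor. Of 7958 tested genes with at least 3 counts in both ExDSS libraries, 6 (0.0754%) had no count in both PC and both Ex libraries. Slc6a19 was 1 of them in advance, since the condition repeats its own pattern, which was already known. The share is therefore a description and no test of Slc6a19. By name, seen after the values, the others were Stfa2, Stfa2l1, Gm5478, Gm5483 and Slc5a12. Stfa2 and Stfa2l1 are stefins of neutrophils, and Slc5a12 is a lactate transporter of the kidney tubule.

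Markers of the kidney tubule stood beside Slc6a19 in these libraries. Of the 7 kidney markers, Slc34a1, the phosphate transporter of the proximal tubule, was at 101 normalised CPM in NC 2, 159 in ExDSS 1 and 15.1 in ExDSS 2. It was at most 0.613 in NC 1, PC 1, PC 2 and Ex 1 and at 11.9 in Ex 2, from 8 counts. Umod, uromodulin of the loop of Henle, was at 18.0, 237 and 34.0 in NC 2, ExDSS 1 and ExDSS 2 and at most 1.53 in NC 1, PC 1, PC 2 and Ex 1. Slc12a3, the salt transporter of the distal tubule, did not share this pattern: it was at 189 in ExDSS 1, had no count in NC 2 or ExDSS 2, and was at most 1.33 elsewhere. The summed level of the 7 markers was 168, 758 and 99.2 normalised CPM in NC 2, ExDSS 1 and ExDSS 2, 40.2 in Ex 2 and 2.33 to 9.70 in the other 4 libraries. At 3 counts or more there were 4, 6 and 4 of the 7 in NC 2, ExDSS 1 and ExDSS 2, 4 in Ex 2 and 4 or 5 in the others. The part that kidney RNA has in the levels of Slc6a19 and Anpep was not tested.

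**Figure D2:**
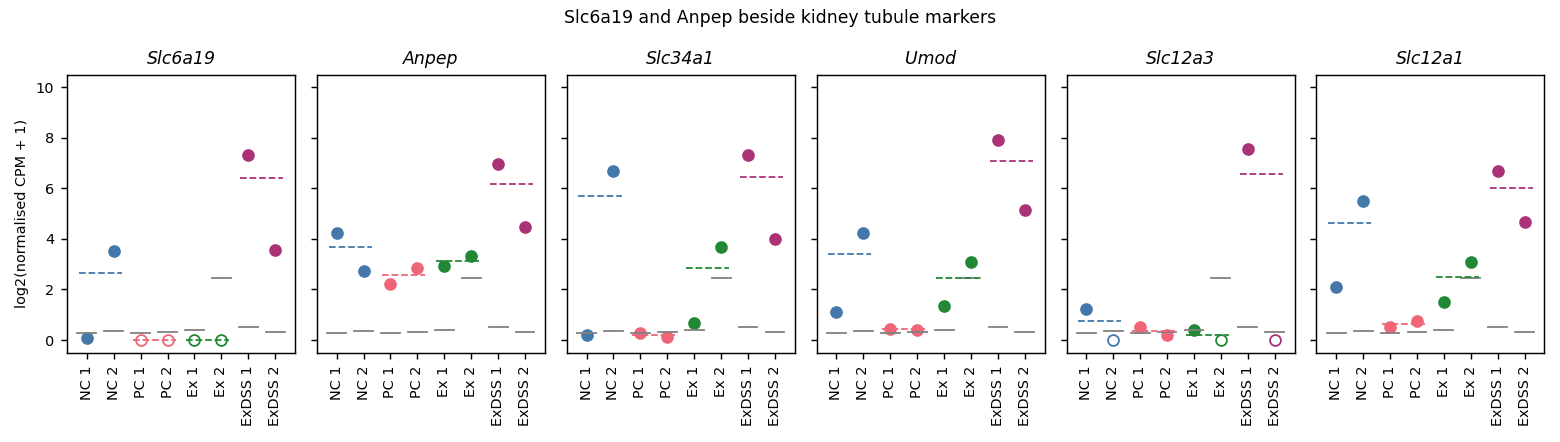
Slc6a19 and Anpep beside 4 kidney tubule markers, as log2(normalised CPM + 1) in each library, with points, dashed lines and grey bars as in the plot of the 10 genes. Slc6a19, Slc34a1, Umod and Slc12a1 have their 3 highest levels in NC 2, ExDSS 1 and ExDSS 2, whereas Anpep is at 5.72 normalised CPM in NC 2 and Slc12a3 is high in ExDSS 1 only.

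Slc5a1, the sodium-linked transporter of glucose and galactose, lies on chromosome 5 from 33104219 to 33162699. The 2 NC libraries were at 35.8 and 5.81 normalised CPM, PC 1 at 75.0, PC 2 at 63.2 and Ex 1 at 72.4. Ex 2 had 1 count, ExDSS 1 had 1 count (0.137 normalised CPM) and ExDSS 2 was at 17.6. The 3 libraries PC 1, PC 2 and Ex 1 were the highest and close to each other, while the libraries of NC, Ex and ExDSS lay far apart within their group, as the SDs below show. Means were 20.8 ± 21.2 in NC, 69.1 ± 8.29 in PC, 36.9 ± 50.1 in Ex and 8.86 ± 12.3 in ExDSS (SD, n = 2). The log2 fold change was 1.73 (SE 1.74) for PC against NC and -2.96 (SE 1.82) for ExDSS against PC, and these became 3.58 without NC 1 and -8.86 without ExDSS 2.

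The 3 lipid binding proteins share a fold but differ in place and cargo, and Fabp2 had more counts than the other 2 in each of the 8 libraries. Fabp1 is the liver type, made by hepatocytes and by the proximal small intestine, Fabp2 the intestinal type, and Fabp6 the ileal type that carries bile acids. Their promoters are shown because the genes are of 1 family and only Fabp2 was abundant. The sequences are from RefSeq (GRCm38.p6), from 250 bases before to 50 bases after the start, 5′ to 3′ on the strand of the gene. Capitals mark a match on either strand to 1 of 5 short motifs.
Fabp1, chr6:71199629-71199928, plus strand: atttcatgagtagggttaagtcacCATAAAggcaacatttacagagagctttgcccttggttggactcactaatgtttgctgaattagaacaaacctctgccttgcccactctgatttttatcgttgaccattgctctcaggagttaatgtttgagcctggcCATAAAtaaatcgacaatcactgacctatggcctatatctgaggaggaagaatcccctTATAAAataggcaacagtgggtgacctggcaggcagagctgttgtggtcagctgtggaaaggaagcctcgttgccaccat
Fabp2, chr3:122894822-122895121, plus strand: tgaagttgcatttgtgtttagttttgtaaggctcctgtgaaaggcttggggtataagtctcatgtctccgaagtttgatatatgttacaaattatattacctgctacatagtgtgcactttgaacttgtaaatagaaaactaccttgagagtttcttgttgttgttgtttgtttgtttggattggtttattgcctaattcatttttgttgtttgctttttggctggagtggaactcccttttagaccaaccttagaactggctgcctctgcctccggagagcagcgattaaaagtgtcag
Fabp6, chr11:43601513-43601812, minus strand: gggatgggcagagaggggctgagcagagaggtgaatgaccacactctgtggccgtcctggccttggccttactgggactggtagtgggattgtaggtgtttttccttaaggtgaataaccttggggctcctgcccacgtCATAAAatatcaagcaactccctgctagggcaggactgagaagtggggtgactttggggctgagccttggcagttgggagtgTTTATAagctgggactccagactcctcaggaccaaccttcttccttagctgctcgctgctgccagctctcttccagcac

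The motifs searched were TTTATG for CDX factors, TGATAA for GATA factors, CAAAGTCCA for HNF4, a longer HNF1 motif and TATAAA for the TATA box, which shares letters with the CDX motif and can overlap it. Fabp1 held 2 CDX matches, whose first bases lie 226 and 88 bases before the start, and a TATA box 30 bases before it. Fabp6 held 1 CDX match at 111 bases and 1 TATA match at 29 bases. The CDX matches of both genes and the TATA match of Fabp6 are on the opposite strand. Fabp2 held none of the 5. Promoters of all 10 genes were in the RefSeq table, and a CDX match occurred in 4 of them (Sis, Lct, Fabp1 and Fabp6), a TATA match in 3, a GATA match in 1 and the HNF motifs in 0. Of all 32851 promoters of the same length, the matches occurred in 11.9%, 13.6%, 9.05%, 0.475% for HNF4 and 0.399% for HNF1. The table places the starts of Sis, Slc6a19 and Anpep 997, 8059 and 5858 bases away from the ends of the deposited gene models. A match is a description of letters, and no match says only that these letters are not in the window.

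Fabp2 lies on chromosome 3 from 122895072 to 122899506 and gave most of the group's counts in 4 libraries. The 2 NC libraries were at 163 and 275 normalised CPM, PC 1 at 764 and PC 2 at 351. It was at 76.4 in Ex 1, 134 in ExDSS 1 and 32.0 in ExDSS 2. Ex 2 had 2 counts, below its floor. Both PC libraries were the highest of the 8, the NC libraries came next, and Ex 1 and the ExDSS libraries overlapped. With RLE factors NC 1 lay below ExDSS 1, at 140.5 against 141.7. Means were 219 ± 79.3 in NC, 558 ± 292 in PC, 39.7 ± 51.9 in Ex and 82.8 ± 71.9 in ExDSS (SD, n = 2). The log2 fold change was 1.35 (SE 1.42) for PC against NC, -2.43 (SE 1.48) for Ex against NC and -2.75 (SE 1.49) for ExDSS against PC. Without Ex 1 the value for Ex against NC was -6.32, and without ExDSS 1 that for ExDSS against PC was -4.14. Of the counts of the 10 genes, Fabp2 made 73.7% and 88.1% in the NC libraries, 89.8% and 81.3% in the PC libraries, 43.8% in Ex 1, and 32.4% and 39.3% in the ExDSS libraries.

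Fabp1, on chromosome 6 from 71199888 to 71205023, had 1 count in NC 1, 8 in PC 1, 11 in Ex 1, 1 in Ex 2 and 0 in the other 4 libraries. Its highest level in a deep library was 1.12 normalised CPM, in Ex 1, and it did not pass the filter. Fabp6, on chromosome 11 from 43596040 to 43601562, was at 3.65 and 15.2 normalised CPM in the NC libraries, 7.27 and 10.5 in the PC libraries, and 14.6 in Ex 1. These rest on 55 to 159 counts each. Ex 2, ExDSS 1 and ExDSS 2 had no count. The libraries of NC, PC and Ex 1 overlapped, and both ExDSS libraries lay below them. Fabp6 was at least 26.8-fold lower in ExDSS than in PC, by the same floor. Of 14178 tested genes with at least 3 counts in both PC libraries, 2045 (14.4%) had no count in both ExDSS libraries, so that this absence was common among all genes.

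The apolipoprotein genes lie together on chromosome 9, Apoa1 from 46228630 to 46230469 and Apoa4 from 46240844 to 46243458. Apoc3 (46233050 to 46235636) sits between them and Apoa5 (46268608 to 46271919) beside them. Apoa1 is the main protein of high density lipoprotein and Apoa4 a chylomicron protein strongly made by the jejunum. Apoa4 had 1 count in NC 1, 1 in Ex 1 and none in the other 6 libraries. Apoa1 had 2 and 0 counts in the NC libraries, and 5 and 6 in the PC libraries. Ex 1 had 22, Ex 2 had 5, ExDSS 1 had none and ExDSS 2 had 1. Both Ex libraries thus gave the highest levels, and those of NC and ExDSS overlapped. Its highest levels were 2.25 normalised CPM in Ex 1 and 7.44 in Ex 2, each from these few counts. Apoc3 had 12, 3, 8 and 5 counts in PC 1, PC 2, Ex 1 and Ex 2 and none in NC and ExDSS, so Apoa1 and Apoc3 were both highest in Ex 2 and at most 2 counts in the NC and ExDSS libraries. Apoa5 had 4 counts in Ex 1, 1 in Ex 2 and none elsewhere.

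Hepatocytes make Apoa1, Apoc3 and Fabp1 too. The summed level of 12 hepatocyte markers was 216 and 62.5 normalised CPM in Ex 1 and Ex 2, 75.0 and 127 in PC 1 and PC 2, 16.2 and 39.6 in NC, and 86.4 and 23.0 in ExDSS. The highest mean was that of Ttr, which other epithelia also express, at 8.16 to 167 normalised CPM. In Ex 2 Ttr was at 22.3, and in ExDSS 1 it was at 18.8, below Hpx at 33.0. Fgb, a fibrinogen chain, was highest in ExDSS 1, at 13.99, and was at 13.4 in Ex 2, from 9 counts. It was at most 8.37 in the 6 libraries other than Ex 2 and ExDSS 1. Alb, the defining marker, was at 26.1 and 8.93 in Ex 1 and Ex 2, 16.4 and 7.45 in PC 1 and PC 2, 20.4 in ExDSS 1 and at most 1.72 in the other 3. At 3 counts or more there were 10 and 5 of the 12 in Ex 1 and Ex 2, 9 and 10 in PC, 8 and 4 in NC, and 4 and 2 in ExDSS. Their part in the level of Apoa1 was not tested.

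Together Sis, Lct, Fabp1 and Apoa4 had 42 counts among the 74726947 of all 8 libraries. Colonic genes, by contrast, were high in sum. The 14 colonocyte genes summed to between 1628 and 10276 normalised CPM in 7 libraries and to 87.8 in Ex 2, against 81.5 to 852 and 22.3 for the 10 genes. Car1, a carbonic anhydrase of colonic surface cells, ranged from 469 to 4391 in those 7 libraries, Slc26a3, the chloride exchanger of the colon, from 247 to 2037, and Car4, a membrane carbonic anhydrase, from 230 to 1672. Not every gene of the list was high. In the same 7 libraries Scnn1g was at most 1.12 normalised CPM and Ces1g at most 7.56, and Fxyd4 had no count in NC 1 or NC 2. At 3 counts or more there were 12 of the 14 in each NC library and 14 in PC 1, PC 2 and Ex 1. There were 11 in ExDSS 1 and 13 in ExDSS 2. By sum, every one of the 7 libraries held the 14 colonocyte genes above the 10 genes. This does not extend to other absorption genes. In ExDSS 1 the lipid absorption list described below summed to 5809, most of it Clps (5496), against 1628 for the colonocyte genes. Posterior Hox genes, which mark the hindgut, summed to 98.2 and 216 in PC 1 and PC 2 and 271 in Ex 1, and to 7.62, 10.2, 5.62 and 25.0 in NC 1, NC 2, ExDSS 1 and ExDSS 2. In Ex 2 they summed to 81.9, with the highest Hoxd10 (49.1) and Hoxd11 (22.3) of the 8 libraries, while its Slc5a1 and Car1 were at 1.49 and 13.4. Hoxb13 was at 83.0, 152 and 183 in PC 1, PC 2 and Ex 1 and at 18.1 or less in the others. Hoxd13 followed, at 8.43, 42.4 and 58.4 against at most 1.93 in the other 4 deep libraries, while Hoxd10 was at 10.1 in NC 2 and at most 10.2 elsewhere among them. Among the 7 deep libraries, PC 1, PC 2 and Ex 1 were therefore high in posterior Hox genes, in Slc5a1 and in Car1, and these 3 libraries also held the most detected genes. Position along the gut and treatment cannot be told apart where both follow the same libraries. Enterocyte transcription factors were present as well, with Klf4 at 70.6 to 676, Hnf4a at 92.4 to 234 and Foxa3 at 41.5 to 183 in the 7 libraries. General epithelial genes, led by Krt8, Krt19 and Phgr1, summed to between 4969 and 7400 in the 7 libraries and to 64.0 in Ex 2, where epithelial RNA was hardly detected.

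**Figure D3:**
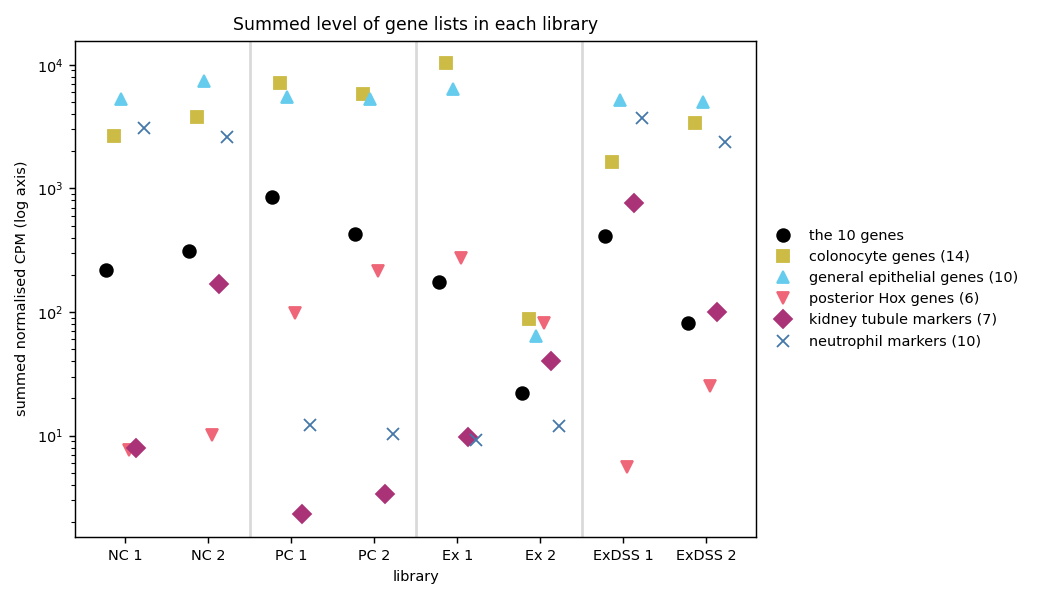
Summed normalised CPM of the 10 genes and of colonocyte, general epithelial, posterior Hox, kidney tubule and neutrophil genes in each library, on a log axis, with vertical lines between groups. The 10 genes lie below the colonocyte and general epithelial genes in all libraries, and the kidney markers reach 168, 758 and 99.2 in NC 2, ExDSS 1 and ExDSS 2.

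The other genes of digestion and absorption were read from 5 lists, of which 63 genes were in the table. In the 7 libraries other than Ex 2, 31 of the 63 reached 10 normalised CPM in at least 1 library, 32 did not, and 14 stayed under 1. Among brush border enzymes, Mgam, maltase-glucoamylase, was at 57.0 to 176 in the 7 libraries and the meprin gene Mep1b at 7.68 to 110, whereas the intestinal alkaline phosphatase Alpi was at most 8.48 and Treh, trehalase, at most 0.408. The other meprin gene, Mep1a, was at 40.0 to 179 in 6 of them and had no count in ExDSS 1. Of the sugar and amino acid transporters, the fructose transporter Slc2a5 was at most 8.10, Slc15a1, which takes up small peptides, was at 4.80 to 45.2, and Slc2a2 was at most 1.24. Slc36a1, a proton-linked amino acid transporter, was at 18.6 to 43.6 in PC 1, PC 2 and Ex 1 and at most 6.28 in the other 4. Slc3a1, the cystine transporter subunit that the kidney tubule also expresses, was at 129 in ExDSS 1 and 0.715 to 25.6 in the other 6.

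Genes of lipid absorption and export gave a mixed picture. Apob, which carries the chylomicron, was at most 4.29 normalised CPM in the 7 libraries, Mttp, which loads it, at most 6.87, and Npc1l1, the cholesterol transporter, had no count in any library. Dgat1, Dgat2 and Acsl5, lipid enzymes that many tissues express, were at 16.6 to 148, 18.0 to 108 and 33.3 to 101. Apoc2, a further apolipoprotein gene, was at 4.08 to 44.3 in the 7 libraries, highest in ExDSS 2. Cd36 was at 0.274 in ExDSS 1, 72.8 in Ex 1 and 121.5 in ExDSS 2. Clps, the colipase gene of the pancreas, was at 2154 in NC 2 and 5496 in ExDSS 1, and at 14.3 to 71.7 in the other 5. In the same libraries the pancreatic acinar markers held 9.12% and 20.5% of all counts, against at most 0.0538% in the other 6.

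Among ileal genes, Fgf15, the bile acid hormone of the ileum, had no count in any library, and Slc10a2, its bile acid importer, was at most 14.6 normalised CPM. Slc51b, a subunit of the bile acid exporter, was at 33.4 to 248, and Nr1h4, the bile acid receptor, at 24.3 to 79.0, both also known in colon. Guca2b, uroguanylin, was at 17.8 to 71.6. Cubn, a receptor for cobalamin in ileum and kidney tubule, was at 103 and 30.0 in ExDSS 1 and ExDSS 2, 4.96 in NC 2 and at most 0.509 in NC 1, PC 1, PC 2 and Ex 1. These are the same 3 libraries that held Slc6a19. Of proximal genes, the iron exporter Slc40a1, which macrophages also express, was at 20.4 to 133, while Pdx1 and Adh6a were at most 0.398. The iron importer Slc11a2 was at 11.6 to 19.6 in 6 libraries with no count in ExDSS 1, and the folate transporter Slc46a1 at 3.65 to 23.3. Of 13 Paneth cell genes in the table, a cell type of small intestinal crypts, 5 had no count in any library, all of them alpha-defensins, and the other 2 alpha-defensins had 1 count each. Lyz1, the Paneth cell lysozyme, was by contrast detected at 9.31 to 21.2 normalised CPM (127 to 293 counts) in all 7 libraries. Itln1, intelectin, had 382 counts in all. The list's summed level came mainly from Nupr1 (118 to 963 in the 7 libraries) and Ang4 (9.39 to 648), followed by Pla2g2a (9.29 to 94.5), and these genes are not limited to Paneth cells.

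**Figure D4:**
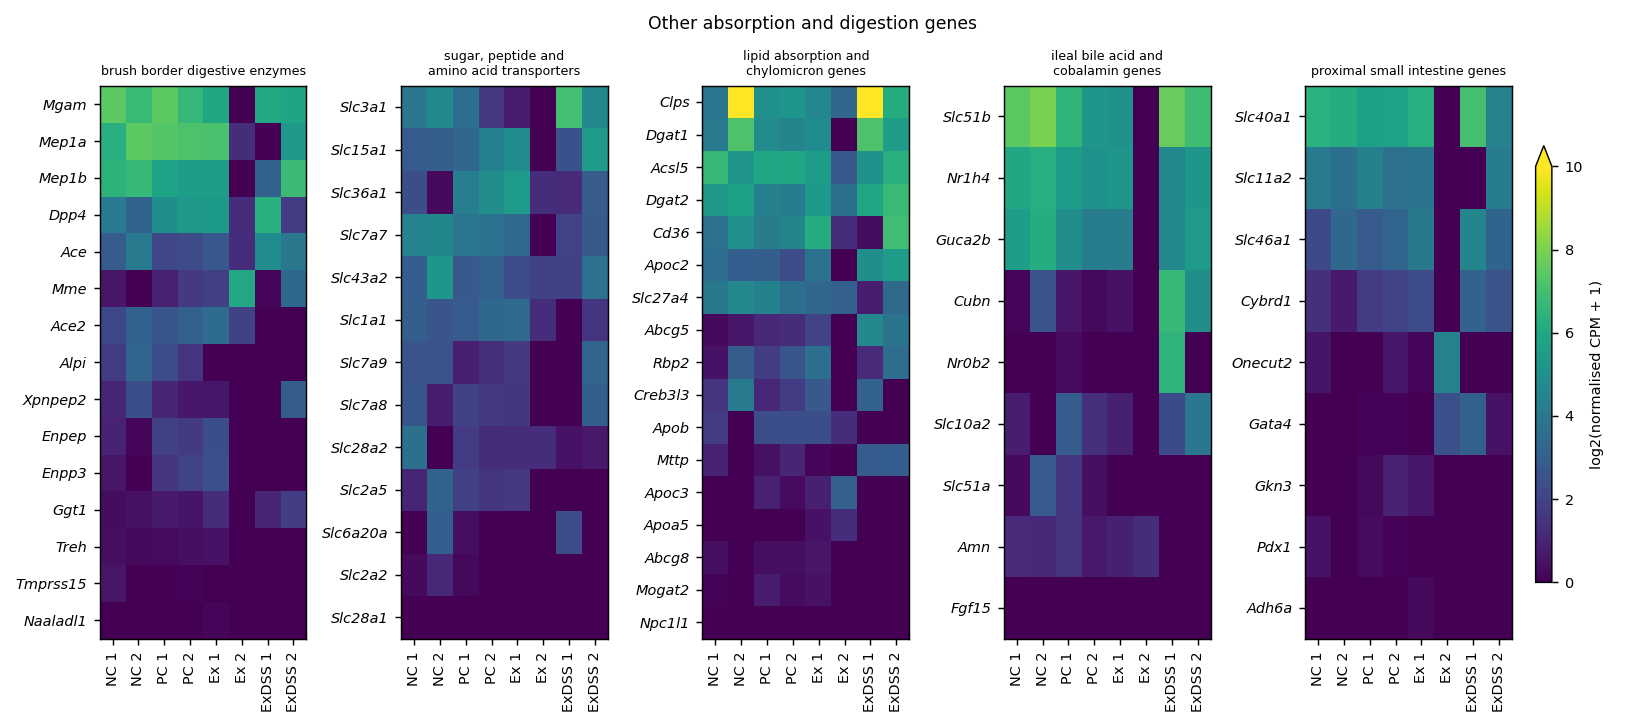
Level of 63 other absorption and digestion genes in each library, as log2(normalised CPM + 1), 1 panel per list and genes ordered by their mean over 8 libraries. Colours end at 10, which Clps exceeds in NC 2 and ExDSS 1, and the lower rows of each panel are dark in nearly all libraries.

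PC was compared with NC to ask what DSS did without exosomes. Of the 10 genes, 6 passed the filter on low counts (Slc6a19, Fabp2, Fabp6, Apoa1, Anpep and Slc5a1), and their counts of calls are listed only, since the levels chose them. With edgeR's quasi-likelihood test at a Benjamini-Hochberg adjusted p under 0.05, 0 of the 6 and 0 of 14567 genes (0%) were called, with 363 genes at an unadjusted p under 0.05. DESeq2 called 83 of the 12307 genes to which it gave an adjusted p (0.674%), and limma-voom 2 of 14567 (0.0137%), none of them among the 10. The number of genes with an adjusted p from DESeq2 differs between comparisons, so its shares are not on the same base as those of the other tools. Without Ex 1 or Ex 2, which enter only through the shared spread, edgeR called 3 and 4. Groups did not overlap for 4 of the 6: Fabp2, Apoa1 and Slc5a1 were higher in PC, and Slc6a19 was lower. For Slc6a19 the order of NC 1 and PC is 1 count against 0, which lies below the floor of 3 counts, so these libraries are not separated. For Apoa1 the order is 5 and 6 counts in PC against 2 and 0 in NC. Over all tested genes, 31% lay higher and 23.6% lower without overlap. Of the 63 other absorption genes 48 were tested and 0 were called by edgeR, DESeq2 or limma-voom, 2 had an unadjusted p under 0.05, and their median log2 fold change was -0.21 against 0.10 for all genes. The 14 colonocyte genes had a median of 0.63, with 0 called by edgeR, 2 at an unadjusted p under 0.05, 1 by DESeq2 and 0 by limma-voom.

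Ex was set against NC to ask what exosomes did without DSS, and Ex 2 limits it. edgeR called 0 of the 6 and 0 of 14567 genes (0%), with 774 at an unadjusted p under 0.05. DESeq2 called 337 of 9483 (3.55%) and limma-voom 0 of 14567 (0%). Apoa1 lay higher in both Ex libraries, and Slc6a19 and Fabp2 lower, against 11.1% and 22.9% of all tested genes. The order of NC 1 and Ex for Slc6a19 is again 1 count against 0. Without Ex 1, edgeR called 1596 genes, with Ex 2 as the only Ex library. In Ex 2 the count of 0 for Slc6a19 allows up to 4.47 normalised CPM. Of the 48 other absorption genes tested, edgeR called 0, with 8 at an unadjusted p under 0.05, DESeq2 2 and limma-voom 0. Their median was -1.14, against -0.27 for all genes.

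ExDSS against PC asks what exosomes given before DSS changed. Again edgeR called 0 of the 6 and 0 of 14567 genes (0%), with 2763 at an unadjusted p under 0.05, against 1488 (10.2%) by DESeq2 and 1160 (7.96%) by limma-voom, which held 3 and 2 of the 6 genes. All 6 genes had groups that did not overlap: Slc6a19 and Anpep were higher in ExDSS, and Fabp2, Fabp6, Apoa1 and Slc5a1 lower. The same held for 18.9% and 45.4% of all tested genes. For Apoa1 this is 5 and 6 counts against 0 and 1, and the floor of ExDSS 1, at 0.411, lies above PC 1. Among the 48 other absorption genes edgeR called 0, with 11 at an unadjusted p under 0.05, DESeq2 5 and limma-voom 3, and the median was 0.53 against -0.51 for all genes. Without Ex 1 or Ex 2, which enter only through the shared spread, edgeR called 5 and 6 genes. For the 6 kidney markers tested the median was 7.51, with 0 called by edgeR, 5 at an unadjusted p under 0.05, 5 by DESeq2 and 1 by limma-voom. Much of this came from ExDSS 1, where the kidney markers summed to 758 normalised CPM against 99.2 in ExDSS 2. Slc12a3 and Slc22a6 had no count in ExDSS 2. The list was chosen with earlier results of these data known.

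In ExDSS against Ex, the effect of DSS in mice given exosomes, edgeR called 0 of the 6 and 0 of 14567 genes (0%), with 2881 at an unadjusted p under 0.05. DESeq2 called 2005 of 14284 (14%) and limma-voom 505 of 14567 (3.47%), which held 3 and 0 of the 6. Slc6a19 and Anpep were higher in ExDSS and Apoa1 lower without overlap, against 17% of all tested genes in each direction. For the 48 other absorption genes, edgeR called 0, with 11 at an unadjusted p under 0.05, DESeq2 6 and limma-voom 4, with a median of 0.94 against -0.29 for all genes. Without Ex 1, edgeR called 1883 genes, and without PC 1 or PC 2 it called 7. These comparisons share groups, so their values are not independent of each other.

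The interaction asks whether the effect of DSS differed with exosomes. edgeR called 42 of 14567 genes (0.288%), 38 of them positive, against 1616 of 14284 (11.3%) by DESeq2 and 327 of 14567 (2.24%) by limma-voom. Among the 42 was 1 of the 6 genes, Slc6a19. The call is listed only, as its level chose it, and its fitted coefficient is no bound because both PC and Ex libraries were at 0. Without Ex 1 edgeR called 1663 genes, without NC 1 or NC 2 it called 0, and without PC 1, Ex 2, ExDSS 1 and ExDSS 2 it called 1, 7, 14 and 23. Slc6a19 was not among the calls when any 1 of the 8 libraries was left out, nor among those of limma-voom. Of the 6 genes, DESeq2 called 3 and limma-voom 0, which are likewise listed only. None of the 48 other absorption genes, 14 colonocyte genes or 6 kidney markers was called by edgeR. At an unadjusted p under 0.05 there were 11, 1 and 4, by DESeq2 5, 1 and 4, and by limma-voom 1, 0 and 0. Of the 9 neutrophil markers tested, 5 were called by edgeR, with positive coefficients: S100a8, S100a9, Retnlg, Mmp8 and Il1b.

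The 10 genes did not share 1 pattern. Over the 45 pairs, Pearson's r of log2(normalised CPM + 1) across the 8 libraries ranged from -0.74 to 0.93 with a median of 0.04, and 24 pairs were positive. These points share library depth, and several genes are at a few counts. The mean of the 10 scaled profiles was highest in Ex 1, at 0.80, and lay between -0.36 and 0.18 in the other 7 libraries. Sis and Apoa4, with 13 and 2 counts in all, followed that mean most closely (r = 0.85 and 0.89), and Slc6a19 least (r = -0.44). The non-member genes most like it among 10048 compared were Med6 (r = 0.91), Snord89 (0.87), Cab39, Fancl, St3gal4, Snrpd3, Lipe and Ppp2r3c (0.80 to 0.81).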

How the data were processed

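Total RNA of 8 mouse intestinal samples was sequenced after Trizol isolation with the QuantSeq kit, which reads transcript ends, per the labels' protocols, so that counts do not grow with gene length. The authors deposited whole-number counts per gene. Bowtie2, bedtools, edgeR and the build mm9 are named without versions in the submitters' processing notes. The table's positions overlap those of GRCm38 for 21889 of 21955 shared genes (99.7%), and coordinates are printed as GRCm38. No source used here says if counting was strand-specific, so reads of overlapping genes cannot be told apart. Gene model widths (other unit) deposited by the authors were not used.

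Library columns were matched to samples by title. Counts were fitted with edgeR 4.0.16 in R 4.3.3: TMM factors, filterByExpr (minimum count 10, total 15), robust quasi-likelihood F test, 1 coefficient per group over 8 libraries, 4 residual degrees of freedom, calls at an adjusted p under 0.05. Each SE was obtained by dividing the size of the log2 value by the root of its F. DESeq2 1.42.0 and limma-voom (limma 3.58.1) were alternatives, with other scalings, filters, a replicate block and each library left out. Scripts were tested on simulated data. Members, lists and rules were chosen with earlier results of these data known. Named are all members, the 3 most abundant genes of each list described in the text with some others chosen after their values were seen, the called genes of these lists, and the 8 genes most like the members' mean profile among those with a mean of at least 5 normalised CPM.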

Additional observations from a re-analysis of the deposited data

Results flagged for a closer look

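Slc6a19 and Apoa1 moved in opposite directions with DSS in the groups without and with exosomes, by the order of the libraries' values, and this difference was not tested because the levels chose the genes. For Slc6a19, the mean of PC was -5.27 normalised CPM relative to NC, which rests on NC 2, since the 1 count of NC 1 lies below the level of 3 counts. The mean of ExDSS was 83.9 above that of Ex. For Apoa1, the mean of PC was 0.351 above that of NC, which rests on 5 and 6 counts against 2 and 0. The mean of ExDSS was -4.80 relative to Ex, of which Ex 2 gave most through 5 counts. Both differences in Apoa1 thus rest on few counts.

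Of the neutrophil markers, 5 differed between the same effects by edgeR's interaction test with Benjamini-Hochberg adjustment. The log2 coefficients were 20.75 for S100a8 and 19.07 for S100a9 (both edgeR adjusted p = 0.00414), 15.38 for Il1b (edgeR adjusted p = 0.00919), 12.68 for Retnlg and 19.82 for Mmp8 (both edgeR adjusted p = 0.0151). Of the 17 alternatives each, the call was kept in 14, 13, 13, 10 and 11, and edgeR, DESeq2 or limma-voom adjusted p-values reached 0.0809, 0.0943, 0.146, 0.222 and 0.139. All 5 genes were high in the NC and ExDSS libraries and low in PC and Ex. The coefficients therefore rest on the NC and PC labels, and whether these were exchanged cannot be told from the files. With NC and PC exchanged, these genes and Slc6a19 would have the higher mean with DSS both with and without exosomes.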

How the results depend on the processing

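Counts of called genes depended on tool and filter. Without a filter on low counts, edgeR called 45 genes for PC against NC, 55 for Ex against NC, 132 for ExDSS against PC, 223 for ExDSS against Ex and 350 in the interaction. DESeq2 called 83, 337, 1488, 2005 and 1616, and limma-voom 2, 0, 1160, 505 and 327. In the interaction, edgeR called 67 genes with RLE factors, of which 46 were positive against 38 of 42 with TMM, 6 with total counts alone and 26 at 1 CPM in at least 4 libraries. With the replicate number as a block, edgeR called 41 genes for ExDSS against PC, 28 for ExDSS against Ex and 161 in the interaction. Same-numbered libraries did not deviate together (correlations -0.15 to 0.05 over 6 pairs of groups), so they share only a number. Leaving out each library gave 0 to 4, 0 to 1596, 0 to 6, 0 to 1883 and 0 to 1663 calls, the highest without Ex 1 in the comparisons with Ex, where Ex 2 alone is assumed to vary like the other groups. The interaction had 0 calls without NC 1 or without NC 2, 1 without PC 1, 7 without Ex 2 and 14 without ExDSS 1. The cause was not tested. Of the members' fold changes, 116 of 120 moved by less than 1 SD under other scalings and 200 of 240 when a library was left out, and 2 and 15 changed sign. In the 4 group comparisons tested, no member's overlap changed with scaling; NC against ExDSS, not among them, changed for Anpep with total counts and for Fabp2 with RLE factors. Depth limits Ex 2, where 15 counts fell on the 10 genes.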

Other observations

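Beyond the 7 kidney markers, 18 further kidney genes were read after the values had been seen, so their levels are a description. Lrp2, megalin of the proximal tubule, was at 105 normalised CPM in NC 2, 338 in ExDSS 1 and 131 in ExDSS 2, 20.8 in Ex 2 and at most 4.77 in NC 1, PC 1, PC 2 and Ex 1. Aqp1, a water channel of the proximal tubule that blood vessels also express, did not follow: it was at 54.4 and 83.7 in the NC libraries, 61.5 and 54.3 in PC, 51.6 in Ex 1, 24.1 in ExDSS 1 and 127 in ExDSS 2. Acsm2, an acyl-CoA synthetase of the kidney, was at 236 in ExDSS 1, 9.34 in NC 2 and at most 1.76 elsewhere. Slc6a18, an amino acid transporter related to Slc6a19, was at 30.4 in NC 2 and 21.0 in ExDSS 1, had no count in ExDSS 2, and was at most 1.13 elsewhere. Miox, an inositol oxygenase of the kidney, was at 14.9 in NC 2, 183 in ExDSS 1 and 4.69 in ExDSS 2, and Aqp2, the water channel of the collecting duct, at 5.62, 146 and 2.93. Other genes did not follow either. Slc13a3 was at 4.11 in NC 1, 3.91 in NC 2 and 83.0 and 61.6 in ExDSS 1 and ExDSS 2, Slc22a12 was at 13.8 in NC 2 with no count in ExDSS, Slc5a2 was at 13.7 in ExDSS 2 with no count in NC 2 or ExDSS 1, and Cyp2e1 was highest in Ex 1, at 28.0. Slc7a13 was at most 1.57 in the 7 libraries other than Ex 2, and Slc34a3 had no count in any library. Pancreatic acinar markers, led by Amy2a5, Cela1 and Ctrb1, were high in NC 2 and ExDSS 1 and summed to 487 normalised CPM in ExDSS 2, most of it Cela1, where 2 of the 17 acinar markers had at least 3 counts.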
